A study of Caenorhabditis elegans with 4 samples.

Results

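The regions described here are the stretches of Caenorhabditis elegans chromosome II at which chromatin bound by the transcription factor SEM-4 was called enriched in L2 larvae. They were chosen by chromosome alone, as every chromosome II entry of the combined region list, and number 1127 of 7554 regions in all. The 2 ChIP samples and 2 input samples came from L2 hermaphrodites of strain OP57, grown at 20 °C. All have the unc-119(ed3) mutation and the insertion wgIs57, which carries unc-119 beside sem-4::TY1 EGFP FLAG. In this strain a transgene introduced by bombardment expresses SEM-4 with a GFP tag, and an antibody to GFP collected the bound chromatin (ChIP), with whole genomic DNA as the input. All samples carry the transgene, so no group lacks the tag. Chromatin was taken from whole larvae, so a region cannot be assigned to a cell type. RefSeq places the transgene's namesakes on other chromosomes, sem-4 on I and unc-119 on III, and its integration site is not given in the sources used here.

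SEM-4 is a zinc-finger protein of the Spalt family. In C. elegans it acts in the fates of neurons, vulval cells and the mesodermal M lineage, for example by holding back touch receptor neuron fate in other neurons. Worm autosomes have a gene-rich centre flanked by arms that are richer in repeats and recombine more often. In ChIP followed by sequencing (ChIP-seq), a called region is a stretch in which antibody-collected fragments pile up beyond the control. It marks occupancy averaged over all cells of the animals and does not show which gene is regulated.

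Positions and q-values are the authors' own, with coordinates on the WormBase WS220 build. Strength below is −log10 of the q-value, so that a larger number means a smaller q. On chromosome II strength ran from 2.00 to 246 in the combined list, with a median of 3.97 and quartiles of 2.75 and 6.47. The quartiles therefore lay near the lower end of this range, with a long upper tail. Width had a median of 357 bp (quartiles 252 and 526 bp) and ran from 1 bp to 12993 bp. Together the regions covered 552 kb of a span of 15.3 Mb, measured from position 1 to the last region end in any list. Replicate 1 had 855 regions on the chromosome, with a median width of 338 bp and a median strength of 3.29. Replicate 2 had 370, with a median width of 431 bp and a median strength of 3.22. The lists give no read numbers, so depth is unknown and a weaker q-value can come from fewer reads as well as from less binding.

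The 15 strongest regions of chromosome II were found in both replicates, and 11 of them were 1 kb or wider. Their median width was 2070 bp, and together they held 8.86% of the bases covered on the chromosome. Ranks below are by q-value within chromosome II, with 1 the strongest. In each of the 15 the best replicate 2 part was weaker than the best replicate 1 part, with a median ratio of strengths of 0.585. This choice used the combined strength, to which both replicates contribute, so their presence in both lists is a description only.

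The strongest region, from 10541856 to 10554848, was also the widest on the chromosome and had the lowest q-value of the whole combined list (strength 246). Replicate 1 divided it into 5 parts with strengths of 112, 4.59, 17.7, 26.8 and 4.98 from left to right. Replicate 2 divided it into 2 parts with strengths of 50.1 and 24.0. In both replicates the left part was the strongest and ranked 1 on the chromosome. Over all chromosomes it ranked 4 in the replicate 1 list and 7 in the replicate 2 list. The first place in the combined list was thus not held in either replicate. The replicate 1 part ran from 10541863 to 10547329 and the replicate 2 part from 10541901 to 10548381, and their left edges nearly coincide.

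It was followed on the right by 3 further regions that were found in both replicates. From 10555253 to 10557612 lay a region of strength 21.1, only 404 bp beyond the strongest one, and from 10558359 to 10560020 a region of strength 25.5. The third, from 10563264 to 10563703, was only 440 bp wide yet ranked 5 on the chromosome with a strength of 75.6. It was a single narrow call in each replicate, from 10563302 to 10563711 with a strength of 63.3 in replicate 1 and from 10563298 to 10563683 with a strength of 37.0 in replicate 2. Broad and narrow enrichment of high strength thus stood 8415 bp apart. To the left of the strongest region the next call was 3421 bp away and far weaker (strength 5.40, rank 362), in replicate 1 only.

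The region that ranked 2, from 8741254 to 8748241, was 6988 bp wide and had a strength of 134. Its main part was called almost identically in both libraries, from 8742962 to 8748204 with a strength of 74.0 in replicate 1 and from 8742976 to 8748146 with a strength of 40.7 in replicate 2. Weaker calls stood at its left flank, with strengths of 2.45 and 5.46 in replicate 1 and 4.22 in replicate 2. A main part with a weaker left flank also made up the region that ranked 3, from 11634006 to 11638111 (strength 114). There the main part had a strength of 61.2 in replicate 1 and 37.0 in replicate 2. The flank was close to equal in the libraries, with 7.35 in replicate 1 and 7.51 in replicate 2.

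Strong regions in 1 piece were narrower. From 5543310 to 5544451 lay a region of 1142 bp with a strength of 96.1, rank 4, which had 71.2 in replicate 1 and 34.0 in replicate 2. Its nearest neighbour was 32.7 kb away, the most isolated position among the 15. The region from 5844539 to 5845351 (rank 8, 813 bp) had strengths of 64.5 in the combined list, 49.7 in replicate 1 and 23.1 in replicate 2. Both were called as 1 part in each replicate. So was the broader region from 9282508 to 9286214 (rank 6, 3707 bp), with strengths of 72.2, 40.5 and 29.0 in the combined list, replicate 1 and replicate 2.

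**Figure D1:**
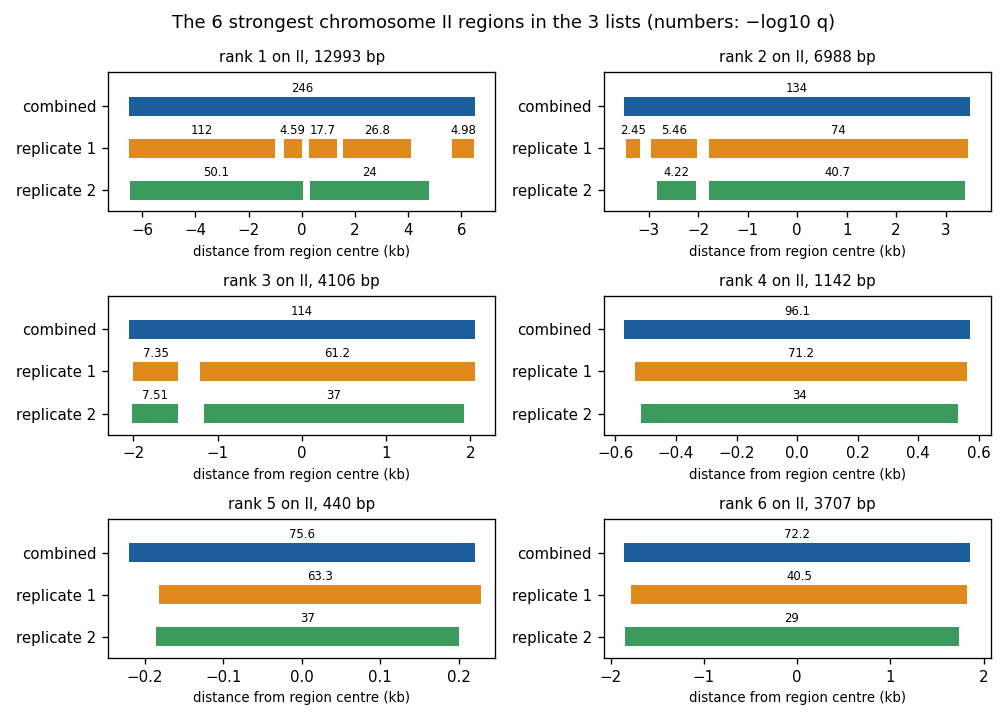
The 6 strongest combined regions of chromosome II (top bar of each panel) and the parts of them called in replicate 1 (middle) and replicate 2 (bottom), against distance from the region's centre in kb. Numbers above the bars are strengths (−log10 q). The region of rank 1 is cut into 5 parts in replicate 1 and 2 in replicate 2, whereas those of ranks 4, 5 and 6 are 1 part in each.

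Further down the list, the region from 8128028 to 8132690 (rank 7, strength 67.5) was cut near its middle in both replicates. The left part had q-values of 5.85e-15 in replicate 1 and 3.22e-10 in replicate 2, and the right part 1.98e-25 and 1.05e-15. The same internal order was thus present in both libraries. The region from 6887649 to 6892121 (rank 9, strength 61.4) was the one where the libraries were furthest apart. Replicate 1 had parts of 37.7 and 7.41, and replicate 2 had parts of 7.83, 3.46 and 4.28. The ratio of best strengths, 0.208, was the lowest of all 316 chromosome II regions found in both replicates.

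The other 6 of the 15 were each called as 1 part in each replicate. Those from 5660873 to 5662942 (rank 10), 14406549 to 14408242 (rank 11) and 6345560 to 6349001 (rank 12) had strengths of 57.6, 54.7 and 49.3. The second of these, the right-most of the 15, ranked 10 on the chromosome in both replicates. The regions from 11761666 to 11762354 (rank 13) and from 11759189 to 11759653 (rank 14) are neighbours and had strengths of 43.7 and 42.0. They were close to equal in each library as well, with 31.1 and 30.9 in replicate 1, and with q-values of 2.98e-13 and 9.53e-14 in replicate 2. The last, from 6838158 to 6839362 (rank 15), had a strength of 41.0 and belongs to the largest group of regions on the chromosome, described below.

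Strong and narrow calls were not limited to the 2 regions under 500 bp among the 15. Of the 50 strongest regions of chromosome II, 28 were 1 kb or wider and 9 were under 500 bp, and all 50 were found in both replicates. The narrowest of these, at 290 bp from 14561639 to 14561928, ranked 29 with a strength of 28.1. It was singled out after its values were seen. Width and strength moved together over the chromosome as a whole. When the regions were put in 10 equal classes by strength, the median width was 823 bp in the strongest class, 327 bp in the fifth and 218 bp in the weakest.

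Agreement with the replicates was then compared between chromosome II and the other chromosomes. A combined region was counted as found in a replicate when it shared at least 1 bp with a region of that replicate's list. On chromosome II, 316 regions were found in both replicates, or 28.0% (95% Wilson interval 25.5 to 30.7), against 28.0% over the whole list. Replicate 1 alone held 449 (39.8%, against 36.4% of the whole list) and replicate 2 alone 40 (3.55%, against 4.01%). Neither replicate held 322, or 28.6% (26.0 to 31.3), against 31.5%. The intervals cover counting error only. The share in both was at the background. The intervals of the classes in replicate 1 alone (37.0 to 42.7) and in neither did not include it, with more regions than the background in the first and fewer in the second.

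Set against the other 5 chromosomes, the share in both replicates was 28.0% on II and 28.0% elsewhere (Fisher's exact test, two-sided, adjusted p = 1). The share in neither was 28.6% on II and 32.1% elsewhere, a difference that did not pass the exact test (p = 0.0199, adjusted p = 0.0796). It depended on chromosome I, where 46.9% of regions were in neither replicate. Without chromosome I the background was 29.0%, and the difference of -3.50 percentage points shrank to -0.40. It passed in the strongest 50% of the list, at 1.23% on II and 3.71% elsewhere (exact test, adjusted p = 0.00878). Counted by replicate 1 alone, 67.9% of regions on II and 63.8% elsewhere had support (exact test, adjusted p = 0.0375), and by replicate 2 alone 31.6% and 32.1%. The backgrounds of these comparisons included chromosome I, and they were not repeated without it. All p-values of this kind were adjusted by Benjamini-Hochberg over the 8 tests of chromosome II against the others. Regions lie in groups and come from the same pair of libraries, so these p-values are too small and describe the lists, not a population of worms.

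Support followed strength. The 71 strongest regions of the chromosome were all in both replicates, and the first exception ranked 72. Of the strongest of the 10 classes, 98.2% were in both replicates, against 58.4% of the third class, 25.9% of the fourth and 6.19% of the fifth. Regions in neither replicate made up 0.893% of the fourth class, 23.0% of the sixth and 83.9% of the weakest. At a strength of 6 or more, 263 of 315 regions were in both replicates and 0 were in neither. The combined list draws on the same libraries as the replicate lists, so this relation describes how the lists are nested.

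**Figure D2:**
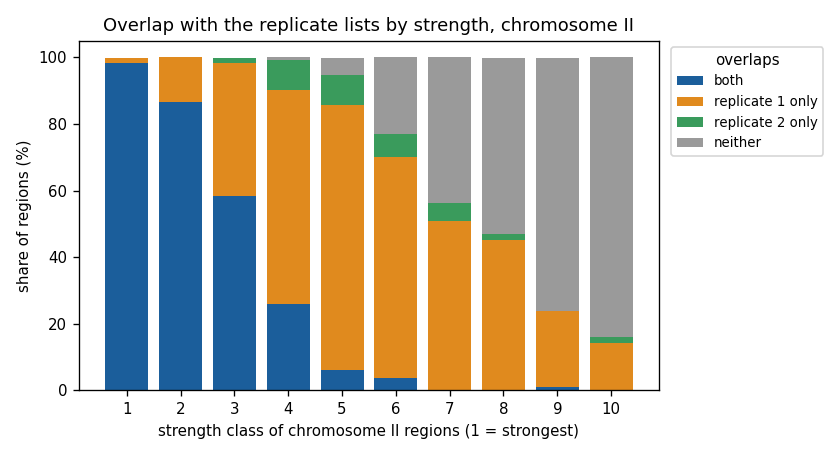
Share of chromosome II regions (%, y axis) that overlap both replicate lists, replicate 1 only, replicate 2 only or neither, in 10 equal classes of strength (x axis, 1 is the strongest). The share in both is 98.2% in the first class and 0 in the last, where 83.9% overlap neither list.

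The strongest region with support from replicate 1 alone, from 9616870 to 9618978, was 2109 bp wide and ranked 72 with a strength of 17.3. Replicate 1 had parts of strength 11.0 and 9.55 there. The part of 9.55, from 9618662 to 9621591, only reached into this region from the right. It lay mostly in the neighbouring combined region that starts at 9619186, 207 bp away, which was found in both replicates. From the region of rank 72 itself the nearest replicate 2 region was 452 bp away. Next came the regions from 8961466 to 8962904 (strength 13.3, with 11.4 in replicate 1) and from 7324803 to 7326164 (strength 11.7, with 5.59 in replicate 1). For these the nearest replicate 2 regions were 2011 bp and 415 bp away. All 3 exceeded 1 kb in width, unlike the class as a whole, with its median of 325 bp and median strength of 3.96.

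Support from replicate 2 alone was rarer, and the class was about as strong as that of replicate 1 alone, with medians of 4.03 and 3.96. Its strongest members were weaker. The strongest such region, from 8224608 to 8225005, ranked 293 with a strength of 6.31, and had 4.30 in replicate 2. The next were from 7393376 to 7394242 (6.22, with 3.10 in replicate 2) and from 759727 to 760154 (5.14, with 2.34 in replicate 2). A replicate 1 region lay 390 bp, 2146 bp and 993 bp away from the 3.

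Regions in neither replicate were weak and narrow, with a median strength of 2.49 and a median width of 264 bp, and 77.3% had a strength under 3. The strongest of them, from 8707038 to 8707342, ranked only 412 on the chromosome, with a strength of 4.92. It stood 9040 bp from the nearest replicate 1 region and 10205 bp from the nearest replicate 2 region. The next strongest were from 8411066 to 8411179 (strength 4.41) and from 3810473 to 3810930 (4.14). Of the 322, 204 (63.4%) were within 5 kb of a replicate region. Of all combined regions of the chromosome, 75.2% had a combined neighbour within that distance. The 2 shares use different targets, so they do not show whether regions in neither replicate are more isolated. Of the 33 combined regions under 50 bp on the chromosome, 21 belonged to this class. One of them, from 11343437 to 11343437, was the narrowest at 1 bp, with a strength of 2.16.

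The replicate lists were also compared directly. Of the 370 replicate 2 regions on chromosome II, 324 overlapped replicate 1, or 87.6% (83.8 to 90.5), against 86.6% over the whole list. Of the 855 replicate 1 regions, 324 overlapped replicate 2, or 37.9% (34.7 to 41.2), against 40.2%. Neither share passed the test against the other chromosomes (Fisher's exact test, adjusted p = 0.709 and 0.366). Without chromosome I in the background, the share of replicate 1 found in replicate 2 was 37.9% on II and 42.8% elsewhere, with an adjusted p of 0.0370. The 100 strongest replicate 2 regions of the chromosome all had a counterpart, as did 96 of the 100 strongest of replicate 1.

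The strongest unmatched replicate 1 region, from 11746641 to 11748615, had a strength of 14.4 and stopped 718 bp short of the nearest replicate 2 region. It overlaps the combined region from 11747670 to 11750385, which is found in both replicates, and is the best replicate 1 part there. It does not touch the replicate 2 part of that region. It also overlaps the combined region from 11746637 to 11747449 (strength 8.83), which is in replicate 1 only. The next 2, from 8961477 to 8962904 (11.4) and from 9617051 to 9618439 (11.0), lie in the regions already named as replicate 1 only. In replicate 2 the strongest unmatched regions were from 8224549 to 8224984 (4.30), from 10946769 to 10947117 (3.42) and from 8440730 to 8441193 (3.34). These 3 lay above the median strength of replicate 2 on the chromosome, 3.22, whereas the 46 unmatched regions together had a median of 2.35.

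Nearly all replicate regions were carried into the combined list. In replicate 1, 65 of 855 had no combined overlap, against 7.15% of the whole replicate 1 list, and in replicate 2 it was 2 of 370, against 0.791%. None was strong. In replicate 1 the 3 strongest were from 6952442 to 6952907 (strength 4.12), from 10533933 to 10534055 (3.47) and from 1415398 to 1415424 (3.39). In replicate 2 they were from 7610488 to 7610603 (2.15) and from 5103236 to 5103471 (2.03). The median width of the 65 was 67.0 bp.

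Where both replicates called a region, they placed it at nearly the same position. Of the 316, 290 matched 1 part in each replicate, and for these the midpoints of the parts differed by a median of 40.2 bp (90th percentile 187 bp). Over the other chromosomes the median was 39.0 bp. Strength was lower in replicate 2 in 270 of the 316, or 85.4%, and in 1427 of the 1800 (79.3%) elsewhere. Dividing replicate 2 strength by replicate 1 strength gave a median of 0.662 on II (quartiles 0.472 and 0.833) and 0.701 elsewhere. These differences between chromosomes were not tested. Across the 316 regions Spearman's rho of the replicate strengths was 0.722, a description over regions of 1 pair of libraries.

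**Figure D3:**
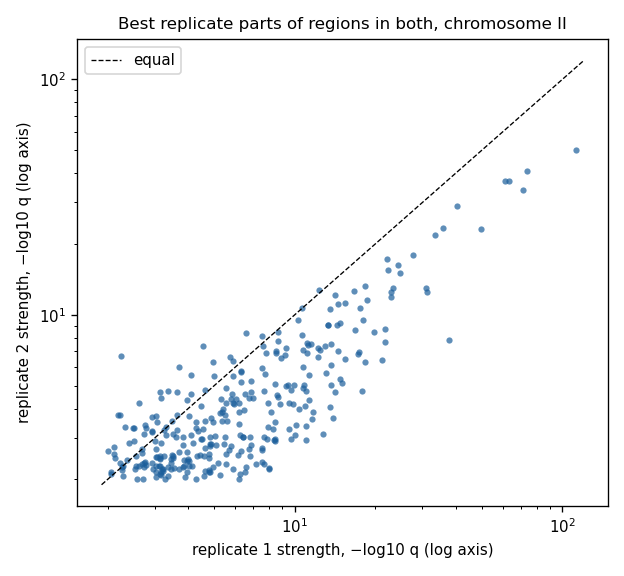
Strength (−log10 q, log axes) of the best replicate 2 part (y axis) against the best replicate 1 part (x axis) for the 316 chromosome II regions found in both, 1 point each. The dashed line marks equal strength, and 270 of the points lie below it.

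The combined call was stronger than the best replicate 1 part in all 316, by a median factor of 1.72, and in 1 of them it did not exceed the best replicate 2 part. Replicate 1 regions covered 81.3% of the bases of the 316 and replicate 2 regions 71.0%. In all, 28 combined regions held more than 1 part of at least 1 replicate. Their median width was 2140 bp, against 532 bp for the 290 regions that matched 1 part in each replicate, and 21 of the 28 were among the 100 strongest of the chromosome.

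Position along the chromosome was compared next. Regions were concentrated in the centre of chromosome II, and its left arm was the emptier of the arms. Arms here are the outer 25% of the span on each side, set by length and not by known arm borders. The central 50% of the span held 746 regions, or 66.2% (63.4 to 68.9), against 62.1% over the whole list. The share on the other chromosomes together was 61.4%, and the difference of 4.78 percentage points passed the test (Fisher's exact test, adjusted p = 0.0176). It was the only one of the 8 tests to do so. The call did not hold against the other autosomes alone, whose share was 63.5% (exact test, adjusted p = 0.366). Nor did it hold in the replicate lists, with differences of 3.73 points in replicate 1 and 5.42 in replicate 2 (exact tests, adjusted p = 0.168 and 0.178), or in the strongest 50% of the combined list (4.41 points, adjusted p = 0.188). By chromosome the share was 51.3% on X, and V stood higher than II at 70.7%. When groups of regions at most 5 kb apart were counted once, a check chosen after the data were seen, the shares were 62.9% on II and 56.9% elsewhere (exact test, adjusted p = 0.0796).

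The left 25% of the span carried 32.5 combined regions per Mb, the central 50% carried 97.7 and the right 25% carried 67.3. The replicates had the same order, with 24.1, 72.7 and 54.5 per Mb in replicate 1 and 6.81, 33.9 and 22.3 in replicate 2. The right-to-left ratio of 2.07 was the highest of the 6 chromosomes, where the others ran from 0.675 on IV to 1.64 on III. That order was not tested, since each chromosome gives 1 value. The ratio depends on where the span is cut, and other cuts were not tried for it. Gene content, repeats and mappability along the chromosome were not examined.

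The arms were alike in typical width and strength. They differed in the share in both replicates and in the count among the 50 strongest, and these differences were not tested. Median width was 354 bp on the left, 352 bp in the centre and 366 bp on the right, and median strength 3.62, 4.01 and 3.93. The share in both replicates was 20.2% on the left, 28.8% in the centre and 29.6% on the right. Of the 50 strongest regions of the chromosome, 2 lay on the left, 32 in the centre and 16 on the right. Of all its regions 11.0%, 66.2% and 22.8% lay there. The 100 strongest, with 8, 65 and 27, were closer to these shares. The strongest on the left, from 2973356 to 2974555, ranked 26 with a strength of 28.9, and had 16.7 in replicate 1 and 12.6 in replicate 2. The right 25%, which starts at 11451019, held the region of rank 3 named above. That region lies between 11000001 and 12000000, a stretch with 100 combined regions, against 55 in the next 1 Mb.

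In 1 Mb bins the count was highest from 8000001 to 9000000, with 115 combined regions, 87 in replicate 1 and 32 in replicate 2. It was lowest among the 15 full bins from 1000001 to 2000000, with 22, 19 and 5. The median of the full bins was 70.0 combined regions. The densest bin was not the bin with the highest support. Support from both replicates was 23.5% in the densest bin. It was highest among full bins, at 35.4%, from 14000001 to 15000000, a bin of 65 regions. The bins starting at 6000001 and 10000001, with 102 and 92 regions, came close to it at 34.3% and 34.8%. In the first 4 bins, with 22 to 47 regions, it was 13.9% to 26.5%. A relation between count and support over the bins was not tested.

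**Figure D4:**
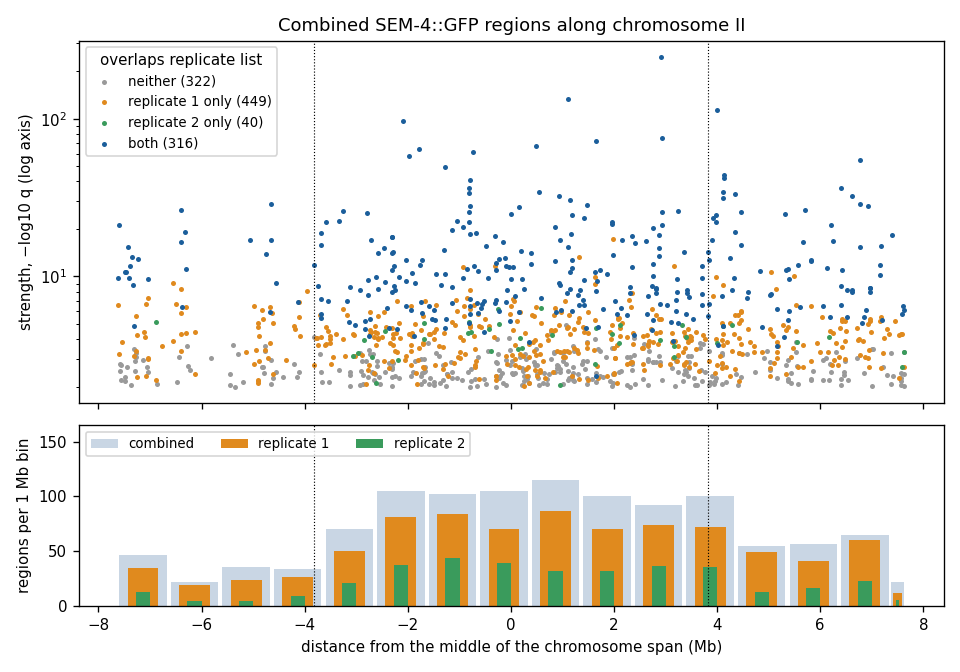
Upper panel: strength (−log10 q, log axis) of each combined region of chromosome II against distance from the middle of its span (Mb), coloured by the replicate lists it overlaps. Lower panel: regions per 1 Mb bin in the combined and replicate lists (the last bin holds 268 kb), with dotted lines at the borders of the central 50%. Counts are highest, at 92 to 115 combined regions, in the 7 bins from the sixth to the twelfth and, among full bins, lowest, at 22 to 47, in the first 4.

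The emptiest stretches were on the left. No combined region lay from 1820282 to 2187783 (368 kb) or from 1502347 to 1820025 (318 kb), and a single region separated these 2 stretches. That region, from 1820026 to 1820281, was 256 bp wide, had a strength of 3.05 and was in neither replicate. Thus 685 kb held 1 weak combined call. The next longest stretches ran from 873743 to 1084974 (211 kb), from 3265395 to 3428253 (163 kb) and from 604416 to 758613 (154 kb). Of the 5 stretches, those starting at 1502347 and 3265395 each held 1 replicate 1 region. The other 3 held none, and replicate 2 had none in any of the 5.

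Elsewhere regions lay in groups. On chromosome II 75.2% (72.5 to 77.6) had a neighbour within 5 kb, against 73.8% over the whole list. Elsewhere it was 73.6% (Fisher's exact test, adjusted p = 0.433). Joining regions at most 5 kb apart gave 526 groups, of which 280 were single regions and 53 held 5 regions or more. These 53 contained 343 regions, 30.4% of the chromosome's total. Members of such groups were wider than single regions, with medians of 417 bp and 308 bp. They were also stronger, with median strengths of 4.39 and 3.59. Of these members 33.5% (28.7 to 38.7) were in both replicates, against 23.2% (18.7 to 28.5) of single regions. Support followed strength, so this comparison does not separate grouping from strength. A broad stretch that was called in pieces also counts as a group here.

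The largest group held 18 regions in 33.8 kb, from 6819624 to 6853379, and 55.6% of its bases were covered. Replicate 1 had 17 regions there and replicate 2 had 16, so it was crowded in both libraries. Of the 18, 11 were in both replicates and 2 in neither, and 7 were among the 100 strongest of the chromosome. Its strongest members from left to right were at 6820886 to 6821569 (strength 25.7), 6823168 to 6824902 (33.8), 6825674 to 6828797 (36.5), 6838158 to 6839362 (41.0) and 6842492 to 6845165 (27.8). No single member dominated, in contrast to the neighbourhood of the strongest region of the chromosome.

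The next largest group, from 5320131 to 5350632, held 16 regions in 30.5 kb but was sparser and weaker, with 28.4% of its bases covered and a highest strength of 17.7. Replicate 1 had 11 regions there and replicate 2 had 6. Groups of 9 regions lay from 5944993 to 5966171, from 11723005 to 11737646 and from 11742903 to 11762354. The first of these had a highest strength of 7.02 and 0 regions in both replicates. The second was much like it, with a highest strength of 7.54 and 1 region in both.

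The third group of 9 was different. It held 4 of the 100 strongest regions of the chromosome: from 11747670 to 11750385 (strength 34.5), from 11756596 to 11757189 (31.4), and the neighbours of ranks 14 and 13 at its right edge (42.0 and 43.7). Of its 9 regions 5 were in both replicates and 0 in neither. It directly follows the second of the groups of 9, so a weak and a strong group stood side by side. The weak group ends at 11737646 and the strong one starts at 11742903, just beyond the 5 kb limit that separates groups. Groups of equal size thus differed in strength and in support.

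Lastly, width and strength were compared between chromosome II and the others. On II 89 regions, or 7.90% (6.46 to 9.62), were 1 kb or wider, against 6.96% over the whole list. Elsewhere the share was 6.80% (Fisher's exact test, adjusted p = 0.366), and the difference was 1.10 percentage points. The strongest 10% of the combined list included 105 regions of II, or 9.32% (7.76 to 11.2), against 9.99%, and 10.1% of regions elsewhere (exact test, adjusted p = 0.601). Median width was 357 bp on II and 357 bp elsewhere, and median strength 3.97 and 3.92. Chromosome II thus held the single strongest combined region without a detectable excess of strong regions.

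**Figure D5:**
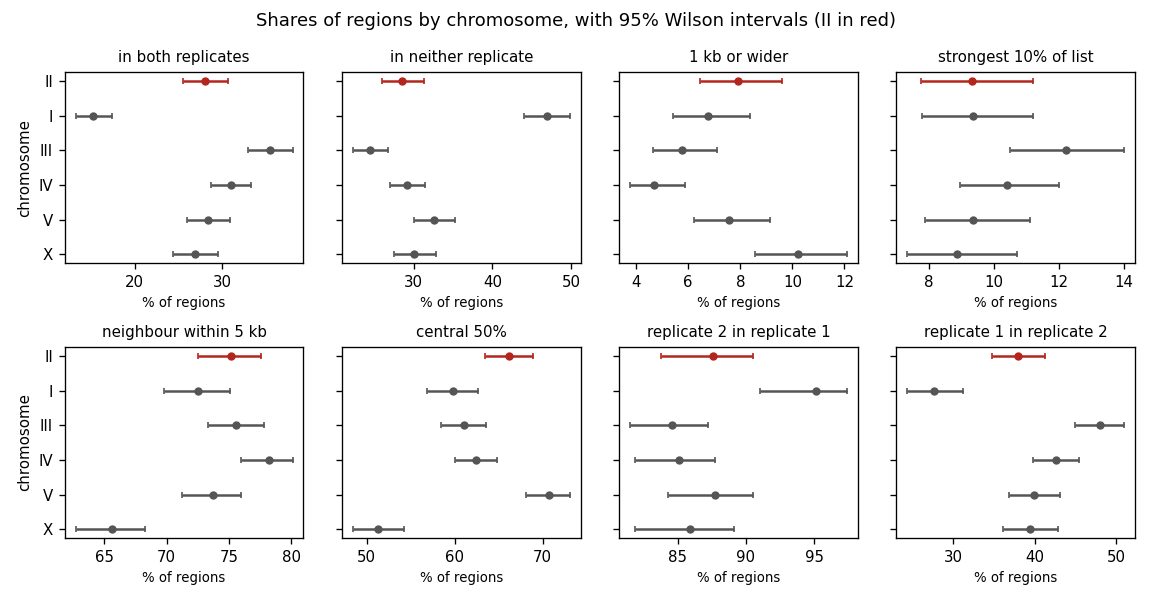
Shares of regions (%, x axes) on chromosome II (red, top of each panel) and the other chromosomes (grey) for the 8 measures compared, with 95% Wilson intervals. Chromosome II lies between other chromosomes in every panel, at 66.2% in the central 50%, below V at 70.7% and above IV at 62.4%.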

How the data were processed

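ChIP-seq of SEM-4::GFP was analysed from 3 region lists of the authors, 1 per ChIP replicate and 1 combined. Per the labels' protocols, worms were crosslinked with 2% formaldehyde and 10% of the extract was kept as input. Per the file headers, regions are PeakSeq calls on WormBase WS220. The deposited p-value is a q-value per region, unscaled, at most 0.00998. Comment lines show coordinates carried over from another build. For the aligner, versions, control and way of combining replicates, nothing is given in the sources used here, and depth is unknown. No label says whether replicates were separate cultures.

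Overlaps (at least 1 bp) were computed with Python 3.11.15, numpy 2.4.6, pandas 2.3.3 and scipy 1.17.1, equalled bedtools 2.31.1, and were tested on simulated lists. Figures used matplotlib 3.10.9. Shares were tested by Fisher's exact test, two-sided, with a threshold of 0.05 on the adjusted p. Named regions are the 15 strongest, the 3 strongest per class and of those without overlap, the 5 longest empty stretches and the 5 largest groups, the densest and sparsest 1 Mb bin, and the widest and narrowest region. Members and lists were chosen with earlier results of these data known. Sequences and genes at the regions were not used here, since the gene table at hand is on WBcel235.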

Additional observations from a re-analysis of the deposited data

How the results depend on the processing

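Each of the 8 comparisons of chromosome II with the other chromosomes was repeated under settings that differ from it in 1 choice, 54 alternatives in all. In 31 the direction and the side of the threshold were the same, and in 13 the direction turned. In 5 a difference came to pass the threshold and in 5 it no longer passed. With 1 replicate left out, the shares in both and in neither are complements, so the same tests were counted under each share. Among the 31, the central share by covered bases had no test. It was counted as the same because 68.0% on II lay within the interval of the main share. The alternatives with groups counted once, with a central 40% or 60%, and with regions under 50 bp removed from the width share were chosen after the data were seen. Values are differences in percentage points, II minus the others. The share in both replicates, at 0.03, turned to -1.33 with 50% of the region covered, -0.99 in the strongest 50% of the list, -0.42 for regions of 50 bp or more, -2.64 without chromosome I and -0.19 against autosomes, and ranged from -0.51 to 4.04 with 1 replicate left out. The share in neither was -2.48 in the strongest 50% (exact test, adjusted p = 0.00878) and -3.91 against autosomes (adjusted p = 0.0407), and ranged from -4.04 to 0.51 with 1 replicate left out. Without replicate 2, 67.9% of regions on II and 63.8% elsewhere were in replicate 1 (exact test, adjusted p = 0.0375). The backgrounds of these alternatives included chromosome I, without which the share in neither was -0.40. The share at 500 bp or wider was -1.53, and that at 1 kb ranged from -0.77 to 0.65 between the replicate lists. The strongest share was 0.079 at 5% and ranged from -1.23 to 0.92 between the replicate lists. The share with a neighbour was -0.089 against autosomes and ranged from -4.23 to 3.24. The central share, at 4.78, no longer passed at 2.68 against autosomes, 4.41 in the strongest 50%, 5.98 with groups counted once, or at 3.73 to 5.42 in the replicate lists, which hold fewer regions. The share of replicate 1 found in replicate 2 passed at -4.86 without chromosome I. Some alternatives use fewer regions, and the cause of these changes was not tested for any of them. No paired analysis was possible because no region list of the inputs was used here. Depth is unknown, which limits any reading of the shorter replicate 2 list.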

Other observations

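The comment lines on coordinates carried over from another build name 3 places on chromosome II. At the combined region from 5660873 to 5662942 (rank 10) the start moved by 12 bp and the end by 11 bp. At 7478649 to 7479200 they moved by 26 and 27 bp, and at 7642015 to 7644184 by 28 and 30 bp. The shifts were the same in every list that names the place.

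No 2 neighbouring combined regions of chromosome II lay closer than 200 bp. The smallest gap was 205 bp in replicate 1 and 226 bp in replicate 2. Of 1126 gaps between neighbours in the combined list, 53 were under 300 bp and the median was 3963 bp. Groups of close calls such as that from 6819624 to 6853379 are therefore separated by at least this distance wherever they were cut.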
